A study of Homo sapiens with 34 samples.

Results

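SPI1, which encodes the transcription factor PU.1, and the C/EBP genes CEBPA, CEBPB, CEBPD, CEBPE and CEBPG were followed through haematopoietic differentiation of the established human embryonic stem cell line H1. These 6 genes were taken by their symbols from a table of 20255 genes in 34 RNA-seq samples of 12 populations. Blood formation in this culture used no added haematopoietic cytokines: BMP4 and VEGF started mesoderm, and VEGF was then the only growth factor. The populations were 1 sample of undifferentiated H1 cells without treatment, and 3 biological replicates each of unsorted embryoid bodies (EBs) at day 0 labelled BMP4+hVEGF, unsorted cells at days 2 and 4 labelled hVEGF, and hVEGF-labelled cells of days 6, 9 and 12 sorted into CD43- and CD43+ fractions. The day 16 sort also used CD45, so that its CD43- fraction is CD43-CD45- and its CD43+ fraction CD43+/CD45+. All samples came from 1 cell line, so the replicates do not cover differences between donors.

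PU.1 is an ETS-family protein that binds purine-rich sites and is needed for macrophages, granulocytes and B cells. C/EBP proteins are basic leucine zipper factors that bind DNA as pairs: C/EBP-alpha opens the granulocyte-monocyte programme together with PU.1, C/EBP-epsilon acts late in neutrophils and eosinophils, C/EBP-beta and C/EBP-delta serve macrophages, inflammation and stress, and C/EBP-gamma lacks an activation domain and pairs with other leucine zipper proteins. PU.1 and the erythroid factor GATA-1 hold each other in check in blood progenitors.

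Values were deposited as GC-normalized tag counts, and sorted by size they were identical in all 34 samples, with a sum of 17856940 and a highest value of 90700. They therefore follow a gene's rank within its sample rather than count its reads, depth is unknown, and differences at the top of the scale are compressed. SPN, the gene of CD43, stood at 2338 to 9460 in the 12 CD43+ samples and at 18 to 328 in the 12 CD43- samples. PTPRC, the gene of CD45, was at 0 to 8 in day 6 CD43+ cells, 634 to 749 on day 9 and 6920 to 15868 on days 12 and 16. In CD43- cells PTPRC was at 0 to 42 in 10 of 12 samples, and at 197 and 371 in samples 2 and 3 of day 12, which stood apart in the same way for SPI1 and macrophage genes and are shown with and without. Log2 fold changes are on the log2(value + 1) scale with standard errors (SE) from 1 limma fit of 33 samples, and genes past both thresholds, a fold change over 4 and an adjusted p (Benjamini-Hochberg) under 0.05, are named as called.

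The genes differed in place and structure. SPI1 lies on chromosome 11 (GRCh38 chr11:47354860-47378576, minus strand) with 2 to 5 exons per transcript, CEBPA on chromosome 19 (chr19:33299934-33302564, minus strand), CEBPB on chromosome 20 (chr20:50190734-50192689, plus strand), CEBPE on chromosome 14 (chr14:23117304-23119616, minus strand) and CEBPG on chromosome 19 (chr19:33373330-33382686, plus strand). CEBPA, CEBPB and CEBPD have a single exon, while CEBPE and CEBPG have 2. CEBPA and CEBPG are neighbours, 70765 bases apart. The GC content deposited for CEBPA, CEBPB and CEBPD was higher than in 98.7%, 98.8% and 99.8% of genes, against 94.5% for CEBPE, 74.9% for SPI1 and 47.2% for CEBPG. How the GC normalization grouped these genes is not given in the sources used here, and levels are compared within a gene and not between genes.

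RefSeq promoters, from 250 bases before to 50 after a start site on GRCh38.p14, were matched by symbol for CEBPA, CEBPB, CEBPE and CEBPG. The promoters of CEBPE and CEBPA are printed because both genes rose in CD43+ cells and their promoters are of different kinds. Capitals in CEBPE mark GAGGAA, the core letters of a PU box, which begin 41 bases before the start site.
CEBPE (chr14:23119206-23119505, minus strand): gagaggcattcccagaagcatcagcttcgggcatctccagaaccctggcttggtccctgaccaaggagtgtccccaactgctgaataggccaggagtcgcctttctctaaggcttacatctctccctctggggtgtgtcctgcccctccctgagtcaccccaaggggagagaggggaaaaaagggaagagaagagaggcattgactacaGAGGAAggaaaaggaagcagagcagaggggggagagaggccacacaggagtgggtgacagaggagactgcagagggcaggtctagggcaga
CEBPA (chr19:33302485-33302784, minus strand): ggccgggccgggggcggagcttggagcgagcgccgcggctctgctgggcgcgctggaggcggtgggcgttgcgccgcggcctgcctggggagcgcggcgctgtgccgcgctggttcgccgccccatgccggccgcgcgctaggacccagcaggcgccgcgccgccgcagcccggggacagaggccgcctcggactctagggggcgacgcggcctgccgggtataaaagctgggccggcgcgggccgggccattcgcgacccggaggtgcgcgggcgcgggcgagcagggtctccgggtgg
The CEBPE window holds 57.7% GC and 2 CG dinucleotides, and the CEBPA window holds 80.7% GC and 50, against medians of 58.7% and 14 over 35116 promoters. Both strands were searched for GAGGAA, for the C/EBP core TTGCNNAA and for the GATA core AGATAA, which do not overlap in these windows and occur in 27.9%, 10.5% and 10.3% of all promoters. CEBPE held the 1 PU box core, and none of the 3 motifs was found in the windows of CEBPA, CEBPB or CEBPG, where CEBPB and CEBPG have a pair of start sites each. These matches describe letters and do not show binding.

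**Figure D1:**
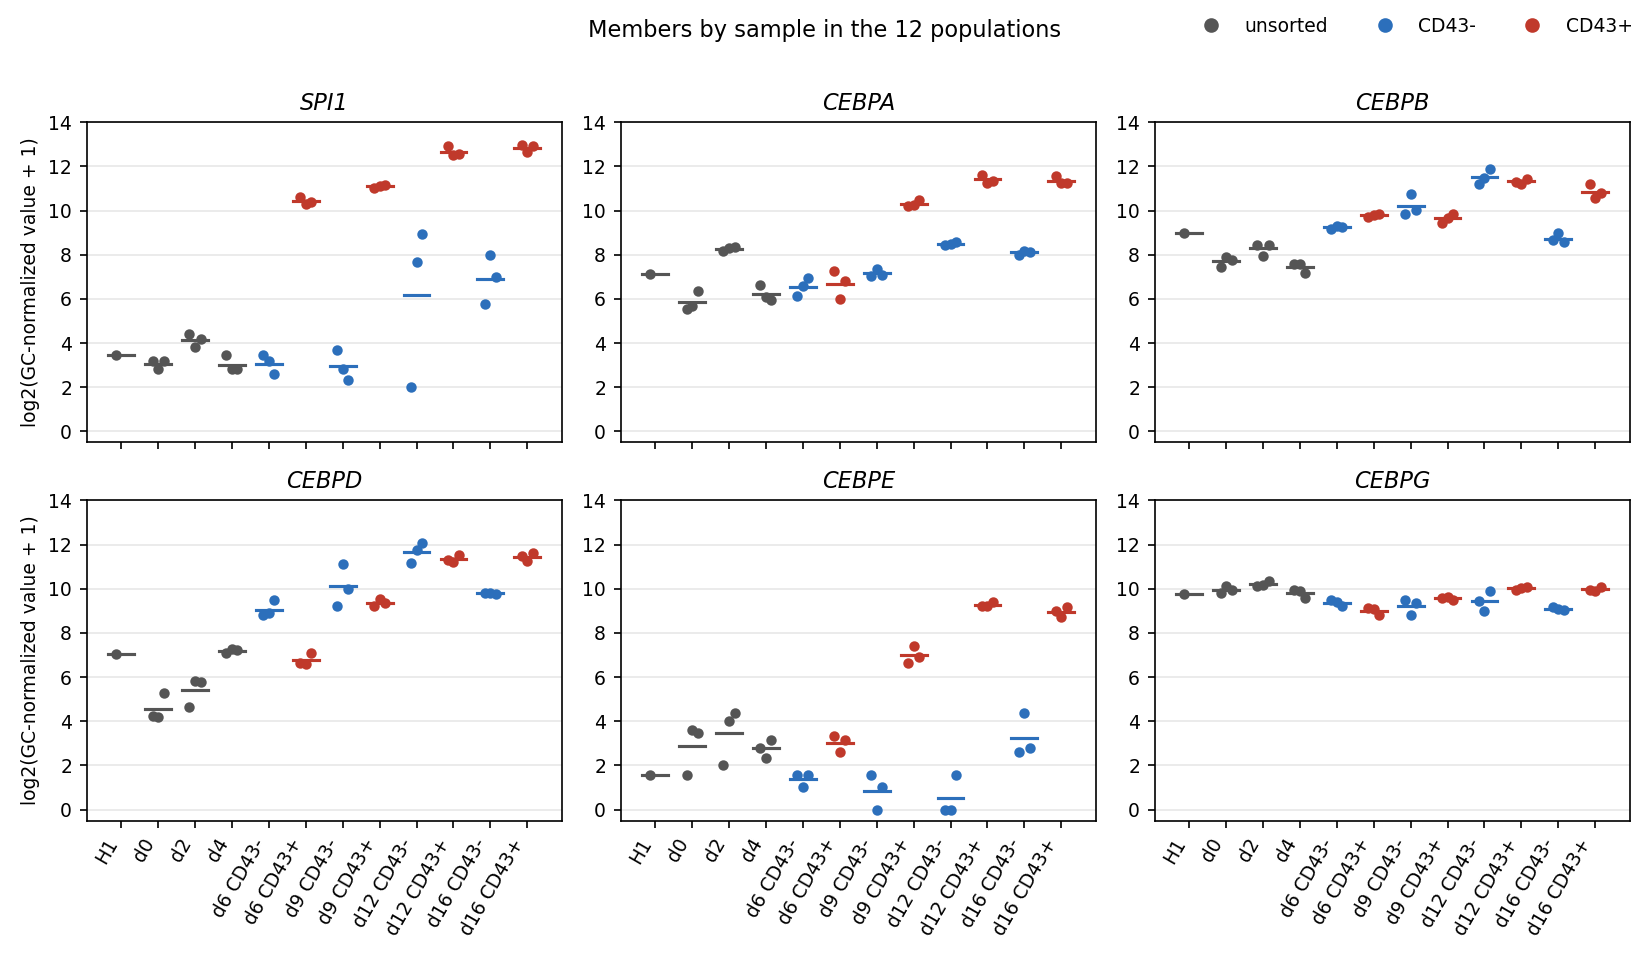
Values of the 6 genes in each of 34 samples, as log2(GC-normalized value + 1), by population in order of time; points are samples and bars are means of log2 values. SPI1 lies at 1247 to 8050 in CD43+ samples and at 3 to 486 in CD43- samples, CEBPE at 99 to 680 in CD43+ samples from day 9 and at 0 to 20 elsewhere, and CEBPG at 451 to 1326 throughout.

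SPI1 was at a low level in every population before sorting, at 10 in H1 cells, 8, 6 and 8 on day 0, 20, 13 and 17 on day 2 and 10, 6 and 6 on day 4. Day 6 CD43+ cells held 1553, 1247 and 1332 and day 6 CD43- cells 10, 8 and 5. On day 9 the values were 2095, 2194 and 2264 in CD43+ cells and 12, 6 and 4 in CD43- cells. Thus the gene of PU.1 stood apart by CD43 as soon as CD43+ cells were sorted, with no overlap between populations. Day 12 CD43+ cells held 7746, 5870 and 6052, and day 16 CD43+ cells 8050, 6442 and 7746. The corresponding CD43- values were 3, 203 and 486 on day 12 and 54, 250 and 128 on day 16, so the late CD43- samples were no longer uniformly low.

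The CD43 difference of SPI1 was 7.35 ± 0.90 (log2 ± SE, n = 3 per population, limma adjusted p = 1.66e-07) on day 6, 8.15 ± 0.90 (1.14e-08) on day 9, 6.47 ± 0.90 (4.38e-07) on day 12 and 5.93 ± 0.90 (1.81e-06) by day 16. The SE is the same on each day because all populations share 1 spread, to which the uneven day 12 CD43- samples contribute. Without samples 2 and 3 of the day 12 CD43- cells, a choice made after seeing the data, the day 12 difference was 10.67. From day 4 to day 6 CD43+ cells SPI1 rose by 7.40 ± 0.90, and no later step in CD43+ cells was called: 0.67 between days 6 and 9 (adjusted p = 0.633), 1.57 between days 9 and 12 (0.140) and 0.18 between days 12 and 16 (0.900). In order of level, the 4 CD43+ populations stood highest, day 6 below day 9 below day 12 without overlap, while days 12 and 16 overlapped. H1, day 0, day 4, day 6 CD43- and day 9 CD43- were at the bottom and overlapped each neighbour.

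CEBPA, the factor of granulocyte-monocyte progenitors, came later than SPI1 in CD43+ cells. Day 6 CD43+ cells held 152, 62 and 110 and day 6 CD43- cells 70, 94 and 124, which overlap. On day 9 the CD43+ values were 1180, 1226 and 1426 against 132, 162 and 134. On day 12 they were 3158, 2438 and 2630 against 344, 356 and 384. From day 9 on every CD43+ sample was above every CD43- sample. Day 16 cells were much like day 12 cells, with 3045, 2426 and 2438 in CD43+ and 256, 290 and 280 in CD43- cells. The CD43 difference was 0.11 ± 0.24 (adjusted p = 0.722) on day 6 and then 3.15 ± 0.24 (1.03e-11), 2.91 ± 0.24 (2.97e-11) and 3.25 ± 0.24 (3.69e-12) on days 9, 12 and 16. Within CD43+ cells it rose by 3.64 ± 0.24 between days 6 and 9 (adjusted p = 1.53e-11).

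CEBPA also had an earlier, short rise before any blood cells were sorted. It went from 46, 51 and 80 in day 0 EBs to 284, 314 and 326 on day 2, and back to 97, 68 and 60 on day 4. No day 2 sample overlapped with those days. The rise was 2.40 ± 0.24 (adjusted p = 8.15e-09) and the fall -2.05 ± 0.24 (1.19e-07), just past the fold threshold, and the fall was not called without day 4 sample 2 (-1.996) or sample 3 (-1.91) or with a pseudocount of 10 (-1.93). SPI1 differed by 1.07 (adjusted p = 0.386) and -1.10 (0.370) at the same steps. Its day 2 samples also lay above those of days 0 and 4 without overlap. So did those of CEBPB (0.57 and -0.83) and CEBPG (0.26 and -0.41), all under a fold of 4. CEBPA overlaps the antisense gene CTD-2540B15.11, and since the use of strand in counting is not stated, reads of the pair cannot be told apart. That gene stood at 38 to 108 in day 9 CD43+ cells, 318 to 358 on day 12 and 146 to 174 on day 16, against 0 to 19 in CD43- cells on days 6 to 16.

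CEBPE, the late granulocyte factor, was close to 0 before day 9. Its values were 0 to 20 in every sample outside CD43+ cells of days 9 to 16. Day 6 CD43+ cells held 9, 5 and 8 and day 6 CD43- cells 2, 1 and 2. It then reached 99, 169 and 120 on day 9, 590, 604 and 680 on day 12 and 512, 426 and 572 on day 16 in CD43+ cells. CD43- cells held 2, 0 and 1 on day 9 and 0, 0 and 2 on day 12. A small amount was present in day 16 CD43- cells, at 5, 20 and 6.

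The CD43 difference of CEBPE was 1.64 ± 0.59 (adjusted p = 0.0224, below the fold threshold) on day 6, 6.13 ± 0.59 (9.01e-10) on day 9, 8.76 ± 0.59 (5.42e-13) at its widest, on day 12, and 5.71 ± 0.59 (2.48e-09) at day 16. With CD43- values this close to 0 the fold depends on the pseudocount, while the order of the samples does not. In CD43+ cells CEBPE rose by 3.97 ± 0.59 between days 6 and 9 (adjusted p = 7.82e-06) and by 2.30 ± 0.59 between days 9 and 12 (0.00168), the latter not called with a pseudocount of 0.1. From day 12 to day 16 it differed by -0.32 ± 0.59 (adjusted p = 0.697), although the 3 day 16 values were all below the 3 of day 12. The order of onset in CD43+ cells was thus SPI1 by day 6 and CEBPA and CEBPE by day 9, with CEBPE rising again by day 12.

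**Figure D2:**
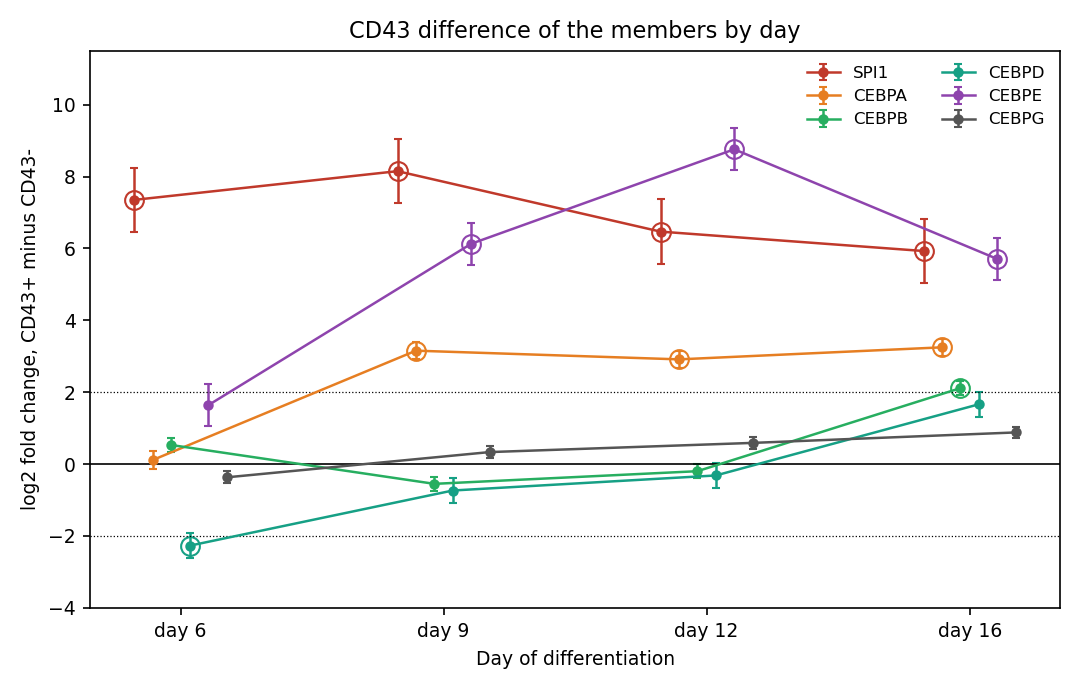
Log2 fold change of each gene between CD43+ and CD43- cells (positive is higher in CD43+) by day, with SE as bars from 1 limma fit, n = 3 per population; open rings mark called differences and dotted lines a fold change of 4. SPI1 is ringed on all 4 days, CEBPA and CEBPE from day 9, CEBPD below 0 on day 6 only, and CEBPB on day 16 only.

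CEBPB, a factor of macrophages and inflammation, was measured in every population and was not confined to CD43+ cells. It stood at 509 in H1 cells and at 144 to 352 over days 0, 2 and 4. Day 6 cells held 832, 887 and 920 in the CD43+ and 582, 625 and 619 in the CD43- population. Day 9 cells held 702, 822 and 921 against 917, 1742 and 1046. By day 9, then, the populations overlapped. On day 12 both stood highest, at 2551, 2334 and 2804 in CD43+ cells and 2368, 2840 and 3750 in CD43- cells. Day 16 separated them, with 2346, 1516 and 1756 in CD43+ and 400, 502 and 382 in CD43- cells.

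The CD43 difference of CEBPB was 0.53 ± 0.20 on day 6 (adjusted p = 0.0306), -0.55 ± 0.20 on day 9 (0.0189) and -0.20 ± 0.20 on day 12 (0.392), none of them above a fold of 4. On day 16 it was 2.11 ± 0.20 (adjusted p = 6.04e-10), and without day 16 CD43+ sample 1 it was 1.94 and not called. That late difference came with a fall of CEBPB in CD43- cells between days 12 and 16 (-2.78 ± 0.20, adjusted p = 4.50e-11), while CD43+ cells differed by -0.47 ± 0.20 (0.0611). CEBPB overlaps CEBPB-AS1 on the other strand, which stood at 2 to 52 in the sorted samples.

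CEBPD, an acute-phase factor, moved largely with CEBPB but began on the other side. In day 6 cells it was at 442, 482 and 709 in the CD43- and 100, 96 and 137 in the CD43+ population, a difference of -2.27 ± 0.34 (adjusted p = 4.17e-06) without overlap. It was the only member called lower in CD43+ cells on any day. Earlier values went from 18, 17 and 38 on day 0 to 24, 56 and 54 on day 2 and 134, 152 and 151 on day 4, of which neither step was called (0.85 and 1.77). On day 9 the CD43- samples were uneven, at 592, 2208 and 1021, and overlapped with 594, 741 and 656 in CD43+ cells. On day 12 the populations overlapped at 2296, 3512 and 4323 in CD43- and 2530, 2395 and 2976 in CD43+ cells. Day 16 CD43+ cells stayed at 2878, 2448 and 3108, and CD43- cells were at 900, 886 and 862.

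In CD43+ cells CEBPD rose by 2.58 ± 0.34 between days 6 and 9 (adjusted p = 1.53e-06) and differed by 1.99 ± 0.34 between days 9 and 12 (2.09e-05), the second just under a fold of 4. From day 12 to day 16 the change was 0.09 ± 0.34 (adjusted p = 0.861) in CD43+ cells and -1.89 ± 0.34 (7.30e-05, fold under 4) in CD43- cells. The day 16 difference was 1.66 ± 0.34 (adjusted p = 0.000122), also under a fold of 4. CEBPD was called between days 9 and 12 in CD43+ cells with median-of-ratios scaling (2.16) and without day 9 CD43+ sample 2 (2.07) or day 12 CD43+ sample 1 (2.01) or 2 (2.05).

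The gene most like CEBPD over the 12 population means was KLF4, a factor induced early after stimulation (r = 0.964). KLF4 stood at 1503, 1496 and 1824, then 3819, 4374 and 2477, then 8272, 6466 and 9722, and then 643, 1026 and 1183 in CD43- cells of days 6, 9, 12 and 16. In day 16 CD43+ cells it was at 7486, 6916 and 8797. FOS, an immediate-early gene and partner of C/EBP proteins chosen here after its values were seen, went from 13287 to 18714 in day 6 CD43- cells to 25776 to 90700 on day 12, and reached the highest value of 90700 in all 3 day 16 CD43+ samples. Within the day 12 CD43- cells, sample 3 was highest for CEBPB, CEBPD and KLF4 but lowest for FOS. In CD43+ cells FOS was at 10397 to 20338 on day 12, when CEBPB and CEBPD were already high. The part of immediate-early gene activity in the CEBPB and CEBPD values was not tested.

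CEBPG, the widely expressed partner without an activation domain, was never called. It was at 876 in H1 cells and between 451 and 1326 in the other samples, lowest on average in day 6 CD43+ cells (552, 534 and 455) and highest on day 2 (1125, 1138 and 1326). The CD43 difference went from -0.37 ± 0.16 (adjusted p = 0.0637) on day 6 through 0.33 ± 0.16 (0.0774) and 0.59 ± 0.16 (0.00261) to 0.88 ± 0.16 (3.61e-05) on day 16. Day 16 CD43+ cells held 988, 954 and 1098 and CD43- cells 584, 537 and 528, without overlap but less than a fold of 2 apart. Neighbours in the order of its populations overlapped, except for day 9 CD43+ against H1 cells and for day 2, which stood above day 12 CD43+ cells.

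Taking the comparisons one by one, CD43+ against CD43- cells gave 2 members called of 6 on day 6 (12.5% of the 19788 genes tested were called), 3 each on days 9 (21.5%) and 12 (26.2%), and 4 of the 6 in day 16 cells (25.8%). All were higher in CD43+ cells except CEBPD on day 6. Before sorting, 1 member was called between days 0 and 2 (7.88%) and 1 between days 2 and 4 (9.50%), both times CEBPA. Against day 4, 2 members were called in day 6 CD43+ cells (14.5%), SPI1 and CEBPB, where CEBPB rose by 2.33 ± 0.20 (adjusted p = 4.96e-10). Day 6 CD43- cells against day 4 gave 0 (7.71%) with limma, where 3 members had an adjusted p below 0.05 but a fold under 4. Among them were CEBPB at 1.80 (adjusted p = 9.20e-08) and CEBPD at 1.87 (8.28e-05). In CD43+ cells 3 members were called between days 6 and 9 (7.53%), 1 between days 9 and 12 (15.0%) and 0 between days 12 and 16 (9.05%), where 1 member, CEBPB, had an unadjusted p below 0.05. In CD43- cells the counts were 0 between days 6 and 9 (1.75%), 1 from day 9 to day 12 (7.33%), and 2 in the last interval, days 12 to 16 (10.4%). Between days 6 and 9, 3 members had an unadjusted p below 0.05. Of these CEBPB also passed adjustment (0.96 ± 0.20, limma adjusted p = 0.00337), at a fold under 4. The members' shares were above the share of all genes in most comparisons, but 6 genes allow only coarse shares, and comparisons that share a population are not independent.

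**Figure D3:**
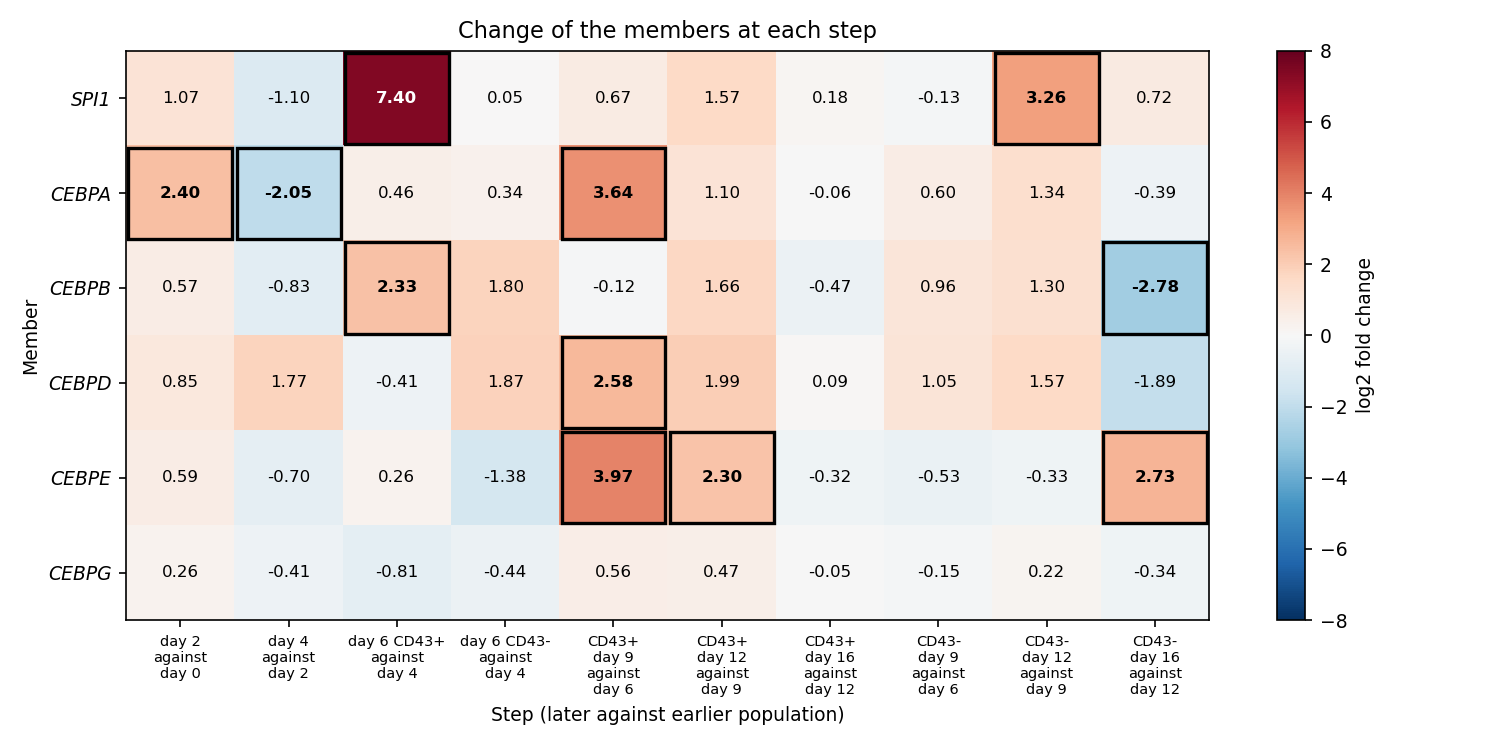
Log2 fold change of the 6 genes at each step of differentiation, later against earlier population, from 1 limma fit with n = 3 per population; black frames and bold type mark called changes. SPI1 has its largest step (7.40) between day 4 and day 6 CD43+ cells, while CEBPA, CEBPD and CEBPE have theirs (3.64, 2.58 and 3.97) between days 6 and 9 in CD43+ cells.

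In CD43- cells SPI1 was called between days 9 and 12 (3.26 ± 0.90, adjusted p = 0.00581), yet only samples 2 and 3 were high. Without both the change was -0.94 (adjusted p = 0.213), and in a fit of only these populations it was not called (0.280). Without sample 3 alone it was 1.89 and not called either. The same samples held other blood genes: CSF1R, the macrophage colony-stimulating factor receptor, was at 71, 1379 and 2314 in samples 1, 2 and 3 and the complement gene C1QA at 12, 410 and 502, both chosen after their values were seen. Over 12 monocyte and macrophage markers, the summed level was 736, 4945 and 6440 in the day 12 CD43- samples, 782 to 3954 on day 6, 925 to 2726 on day 9 and 22276 to 82343 in day 12 CD43+ cells. MRC1, which some endothelium also uses, gives most of the day 6 and day 9 sums, with means of 2006 and 1190. The part of macrophage RNA in the SPI1 values was not tested, and fewer cells with the gene and less RNA per cell cannot be told apart in bulk samples.

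Day 16 CD43- cells held SPI1 beside a partly different set of genes. Their macrophage markers summed to 817 to 1096 and C1QA was at 8, 2 and 6, but myeloperoxidase (MPO), a neutrophil granule enzyme, was at 4657, 12840 and 8970 and the eosinophil gene PRG2 at 765, 3658 and 1674. SPI1, MPO, PRG2 and CEBPE were each highest in sample 2 and lowest in sample 1. The primary granule genes summed to 7274, 26812 and 15228, against 232362 to 271994 in day 16 CD43+ cells. CD43- sums were 60 to 98 on days 6 and 9 and 84 to 7442 (median 529) on day 12. The highest day 12 sum was thus above that of day 16 sample 1. In CD43- cells 4 of these 8 genes were called higher between days 9 and 12 (7.33% of all genes called). Between days 12 and 16 it was 8 of 8 (10.4%). CEBPE was called higher on day 16 than on day 12 in CD43- cells (2.73 ± 0.59, adjusted p = 0.000474), at values of at most 20, and it was not called with a pseudocount of 10 (0.86). Other blood markers moved too: between days 12 and 16, 9 of 11 megakaryocyte and 7 of 12 erythroid markers were called higher in CD43- cells and none lower. Megakaryocyte sums were 5861, 16926 and 9130 in day 16 samples 1, 2 and 3, again highest in sample 2 and lowest in sample 1, against 1061 to 2076 on day 12 and 28768 to 106431 in day 16 CD43+ cells. Erythroid sums were 4729, 7245 and 7791 against 603 to 1214 on day 12. The part of granulocyte, megakaryocyte or erythroid RNA in these values was not tested. SPN was at 84, 328 and 122 in the same samples, again highest in sample 2.

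**Figure D4:**
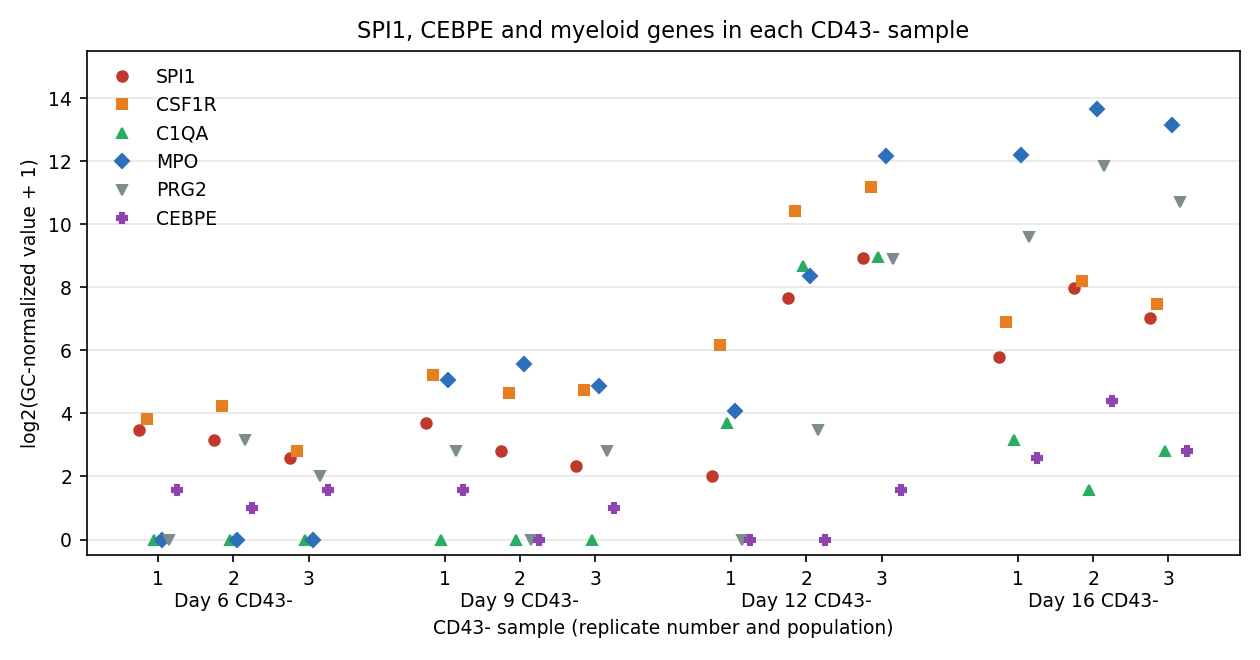
SPI1, CEBPE and 4 myeloid genes in each of the 12 CD43- samples, as log2(GC-normalized value + 1). In day 12 samples 2 and 3 SPI1 is high beside CSF1R and C1QA, and in the day 16 samples SPI1 is high beside MPO and PRG2, with C1QA at 8 or less.

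Most of 20 listed genes with known PU.1 sites in myeloid cells were, like SPI1, higher in CD43+ cells. More of them were called at later steps than from day 4 to day 6. This list and those below were chosen with earlier results of these data known, so their counts are no independent support. Of the 20 genes, CD43+ cells of day 6 had 10 called higher and 1 lower. CD43+ cells of days 9, 12 and 16 had 18, 20 and 19 of them higher and 0 lower. Their median log2 difference was 2.31, 5.17, 4.82 and 5.37 on the 4 days, against 0.14, 0.24, 0.22 and 0.14 over all genes. Of all genes 12.5%, 21.5%, 26.2% and 25.8% were called in either direction on these days, the shares to set beside each list below. By step, 7 of the 20 were called higher from day 4 to day 6 CD43+ cells, where SPI1 rose by 7.40, at a median of 1.71 against 0.03 over all genes. In CD43+ cells 10 were called higher between days 6 and 9 (median 2.42 against 0.01) and 15 between days 9 and 12 (3.07 against -0.15). None was called lower at these 3 steps. SPI1 was not called between days 6 and 9 or days 9 and 12, but it rose by 0.67 and 1.57 without overlap. No test links the list to SPI1. On day 6 the largest were TYROBP (7.12 ± 0.93) and FCER1G (5.14 ± 0.75), signalling adaptors of Fc receptors, NCF4 (7.04 ± 1.0), an NADPH oxidase subunit, and CSF1R (4.97 ± 0.75). On day 9 NCF4 differed most, with a mean of 2367 in CD43+ cells. By day 16 CYBB, the catalytic oxidase subunit, differed by 8.83 ± 0.90 and the Fc receptor gene FCGR1A by 7.40 ± 0.76. The gene called lower on day 6 was the scavenger receptor MSR1 (-2.46 ± 0.67), at a mean of 6 in CD43- cells and 0 in CD43+ cells. Among the genes of the PU.1 family, SPIB differed by 0.33 on day 6 and was called higher on the 3 later days (2.22, 2.56 and 3.73), at means of 1 to 59.

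Primary granule genes with C/EBP-alpha sites were called higher in CD43+ cells in 4 of 8 on day 6, 7 of 8 on day 9 and 8 of 8 on days 12 and 16. On day 6, when the CEBPA difference was 0.11 and not called, those called were MS4A3 (6.99 ± 0.75), MPO (4.11 ± 1.0), LYZ (3.78 ± 1.04) and CTSG (3.57 ± 0.80). Their day 6 CD43+ means were 184, 18, 416 and 27, far below the day 12 means of 9648, 90700, 90700 and 2987. MPO and LYZ stood at the top value in all day 12 and day 16 CD43+ samples, so their later differences are compressed. On day 9 the proteinase gene PRTN3 differed by 9.71 ± 1.27, and on day 12 MS4A3 by 11.17 ± 0.75.

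Secondary granule genes, which C/EBP-epsilon drives in late neutrophils, were called higher in 3 of 9 tested on day 6, 2 on day 9 and 7 on days 12 and 16. The day 6 genes were LCN2 (5.64 ± 0.59), LTF (4.25 ± 0.78) and CRISP3 (2.57 ± 0.63), at CD43+ means of 76, 18 and 7, while CHI3L1 was lower (-3.80 ± 0.75). CEBPE itself was at 5 to 9 in those samples. On day 12 the largest were OLFM4 (9.37 ± 0.61), LTF (7.74 ± 0.78), PGLYRP1 (6.12 ± 0.81) and CHI3L1 (6.11 ± 0.75). Their day 12 CD43+ means were 1112, 408, 117 and 1443. CEBPE stood at 99 to 169 in the day 9 samples with 2 genes of the list called and at 426 to 680 in those of days 12 and 16 with 7, which are the same samples and are no test of regulation.

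Eosinophil and mast cell genes, of which eosinophils are the lineage where C/EBP-epsilon acts, were called higher in 4, 10, 11 and 11 of 12 on days 6, 9, 12 and 16. The granule gene PRG2 (11.03 ± 1.35), the Charcot-Leyden crystal gene CLC (10.21 ± 0.78), the eosinophil peroxidase gene EPX (10.04 ± 0.88) and PRG3 (9.61 ± 0.76) differed most on day 12. On day 16 the mast cell tryptases TPSAB1 (7.48 ± 0.62) and TPSB2 (5.97 ± 0.46) led. RNASE2 was the gene called lower on day 6 (-3.07 ± 0.80), at a mean of 9 in CD43- and 0 in CD43+ cells.

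Inflammatory genes with C/EBP-beta and C/EBP-delta sites split by gene. Over days 6, 9, 12 and 16, CD43+ cells had 2, 5, 7 and 8 of the 14 tested genes called higher and 1, 3, 3 and 0 called lower. On day 12, when CEBPB and CEBPD overlapped between populations, the acute-phase genes ORM1 (7.96 ± 1.03) and HP (7.74 ± 0.89) and the cytokines CCL3 (5.25 ± 1.16) and IL1B (5.24 ± 0.91) were highest in CD43+ cells. In the same comparison IL6 (-4.88 ± 0.71), CCL2 (-3.51 ± 0.62) and LIF (-2.44 ± 0.34) were lower there. LIF stood at a mean of 1511 in day 12 CD43- cells against 278 in CD43+ cells, and at 133 and 126 on day 16. On day 16 CCL3 (7.57 ± 1.16) and CXCL8 (7.44 ± 0.81) differed most.

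Amino acid response genes, where C/EBP-gamma and CHOP act with ATF4, were mostly not called, as was true of most genes tested. Over days 6, 9, 12 and 16, 0, 0, 1 and 0 of the 13 genes were called higher and 2, 1, 1 and 0 lower. ATF3 was lower in CD43+ cells by -3.50 ± 0.28, -3.09 ± 0.28 and -2.60 ± 0.28 on days 6, 9 and 12, and it is also an immediate-early gene. PHGDH (-2.59 ± 0.22) was the other gene on day 6, and the cystine transporter gene SLC7A11 (2.11 ± 0.36) was higher on day 12. DDIT3, the gene of the C/EBP protein CHOP, differed by 0.08, -0.22, -0.00 and 0.70 (SE 0.23), and CEBPZ by 0.86, 1.24, 0.17 and -0.28 (SE 0.14), with no call. Fat and liver genes with C/EBP sites went the other way in part, with 4, 3, 2 and 4 of 8 called lower and 0, 1, 2 and 2 higher. TTR (-5.998 ± 0.71) and APOA1 (-5.62 ± 0.59) were the lowest in day 12 CD43+ cells, and G6PC (3.69 ± 0.64) and PPARG (3.50 ± 0.33) were higher.

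**Figure D5:**
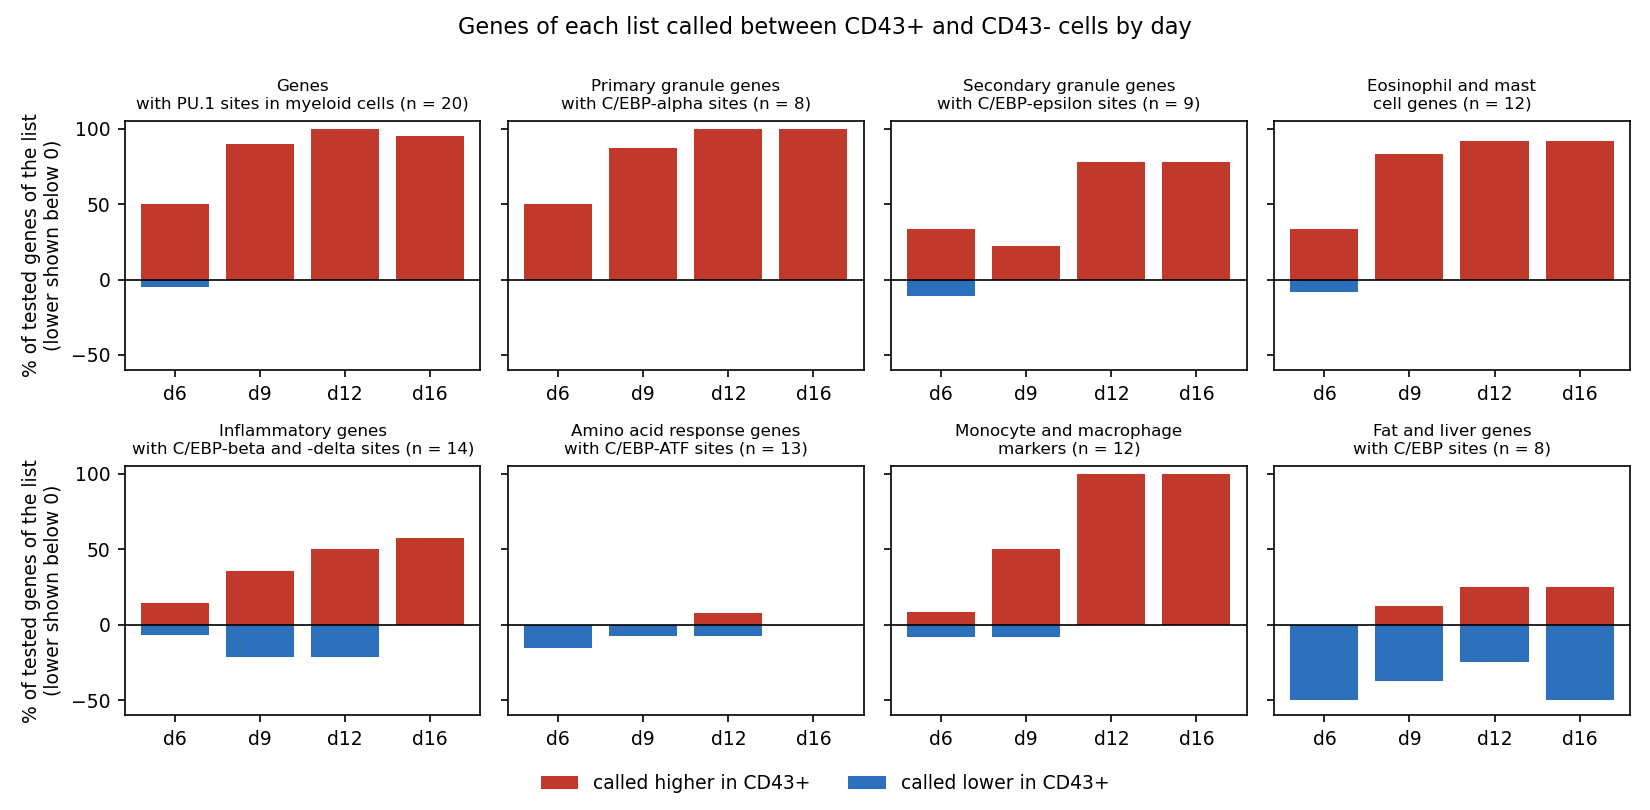
Percent of the tested genes of 8 lists that were called higher (above 0) or lower (drawn below 0) in CD43+ than in CD43- cells on days 6, 9, 12 and 16; n is the number of genes tested in the list. The PU.1-site list goes from 10 of 20 to 20 of 20 genes called higher between day 6 and day 12, and the secondary granule list is at 7 of 9 from day 12. The amino acid response list is at 0 to 2 of 13 in each direction.

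Partners and antagonists of PU.1 and C/EBP factors showed which other regulators stood beside the members. Over the same days, CD43+ cells had 5, 8, 6 and 10 of these 20 genes called higher and 3, 4, 5 and 0 called lower. On day 6 GATA1 (8.38 ± 0.62), GFI1 (6.49 ± 0.47) and MYB (5.42 ± 0.53) were high together with SPI1, and IRF8, the PU.1 partner of monocytes, was lower (-3.80 ± 0.75) at 0 in all 3 CD43+ samples. By day 9 IRF8 stood at 1179, 1368 and 1333 in CD43+ cells, a difference of 5.36 ± 0.75, and on day 12 IRF4 differed by 4.70 ± 0.52. GATA1 means in CD43+ cells were 2719, 3688, 705 and 1554 on the 4 days, so SPI1 and GATA1 were measured together in each of these bulk populations, where they may lie in different cells. Between day 9 and day 12, when SPI1 and CEBPE were at 2184 and 129 and then 6556 and 625 on average, the summed erythroid markers went from 169959 to 301863 down to 8769 to 24344 in CD43+ cells. The sums were 125408 to 145231 on day 6 and 17029 to 48361 on day 16, when SPI1 averaged 1377 and 7413. From day 6 to day 9 they thus rose together with SPI1, and the day 12 and day 16 ranges overlapped. A link between the erythroid markers and SPI1 was not tested.

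Markers of the other cell types differed by CD43 as well, the full list of monocyte and macrophage markers only from day 12. On day 9 the sums of that list overlapped, at 1099 to 1539 in CD43+ and 925 to 2726 in CD43- cells. On days 6, 9, 12 and 16, 1, 6, 12 and 12 of 12 monocyte and macrophage markers were called higher, 11, 11, 11 and 9 of 12 erythroid markers and 9, 10, 10 and 10 of 11 megakaryocyte markers. A monocyte and macrophage marker was called lower on days 6 and 9 (1 each), and 1 megakaryocyte marker on days 9, 12 and 16. On day 6 the other 10 monocyte and macrophage markers were not called, and the median of the list was 0. Called lower were 2, 7, 7 and 8 of 10 endothelial and 7, 10, 10 and 10 of 10 mesenchymal markers, with mesenchymal sums of 198521 to 325825 in CD43- samples against 4272 to 155294 in CD43+ samples. Of the macrophage markers, 4 were at 0 in all day 6 CD43+ samples, C1QA among them, where SPI1 was already at 1247 to 1553. Their part in the members' differences was not tested.

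Over the 12 population means, whose values share 1 normalization and many of the same cell types, SPI1, CEBPA and CEBPE were alike. Their r was 0.826 between SPI1 and CEBPA, 0.841 between SPI1 and CEBPE and 0.846 between CEBPA and CEBPE. CEBPB and CEBPD were about as alike (0.835). CEBPA had r of 0.668 to CEBPB and 0.670 to CEBPD, and SPI1 0.623 and 0.518, while CEBPE had 0.336 and 0.341. For CEBPG r was 0.454 to CEBPE, 0.331 to CEBPA, 0.028 to SPI1, -0.159 to CEBPB and -0.228 to CEBPD. The protein-coding genes most like SPI1 were LRMP (0.986), HCST (0.981), FCER1G (0.978), WAS (0.975) and TYROBP (0.972). LRMP was at 0 to 1 in CD43- cells of days 6 and 9 and at 1344 to 1587 in day 16 CD43+ cells. CEBPA was most like IPCEF1 (0.957), APOL6 (0.954), FCMR and TIFAB (both 0.953) and LAT2 (0.951). For CEBPE the leading genes were GPR174 (0.982), GRK2 (0.975), RP11-330H6.5 and C15orf53 (both 0.974) and ADGRG3 (0.969), where GPR174 stood at no more than 42 in the sorted samples. FAM98C (0.937) and RASL11A (0.928) were among the leading genes for CEBPB, and VENTX (0.907) for CEBPG.

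The change of the CD43 difference between days was tested as an interaction. From day 6 to day 9 it was called for 2 members (7.39% of genes), CEBPA (3.04 ± 0.34, adjusted p = 5.64e-07) and CEBPE (4.49 ± 0.83, 0.000347). From day 9 to day 12 it was called for 1 member (9.0%), CEBPE (2.63 ± 0.83, 0.0189), which was not called without day 9 CD43- sample 1 (2.27, 0.0604). From day 12 to day 16 it was called for 2 (5.03%), CEBPB (2.31 ± 0.29, 3.91e-06) and, downwards, CEBPE (-3.05 ± 0.83, 0.0121). For SPI1 the changes were 0.80 ± 1.27, -1.68 ± 1.27 and -0.54 ± 1.27, none of them called, and without the day 12 CD43- samples 2 and 3 the latter pair were 2.52 and -4.74, both called. CEBPD changed by 1.54 ± 0.49 (adjusted p = 0.0271), 0.42 ± 0.49 and 1.98 ± 0.49 (0.00571), under a fold of 4 each time.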

How the data were processed

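RNA was measured in 34 samples of H1 cells, grouped by the sample labels. From reads aligned with bowtie2 and RSEM to Ensembl transcripts, the authors made GC-normalized tag counts with EDASeq, rounded to whole numbers; the submitters' processing notes also name STAR 2.7 and hg38. They were handled as a normalized score, deposited with a GC percent for every gene. Sequencing was done at 2 companies, which the labels do not tie to samples, so this batch could not be examined. All value columns matched 1 sample each.

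A pseudocount of 1 was added before taking log2, and 33 samples from 11 populations entered 1 linear model (limma 3.58.1, R 4.3.3, trended eBayes) without a replicate block; the single H1 sample was left out. Testing covered the 19788 genes that reached 10 in 3 or more samples, all 6 members among them, with Benjamini-Hochberg adjustment over all of them and 17 comparisons fitted. The procedure was tested on simulated data. Tables and figures were made with Python 3.11.15, pandas 2.3.3 and matplotlib 3.10.9. No precision from counting can be given.

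The members and lists were chosen with earlier results of these data known. The lists hold general knowledge of targets and markers; some genes (DDIT3, TRIB3) are in more than 1. Genes named are the members, SPN and PTPRC, from each list at most the 4 largest called changes, the 5 protein-coding genes most like each member by Pearson r, and overlapping genes, of which some are not reported here; others are said to have been chosen after their values were seen. Same-numbered CD43+ and CD43- samples deviated together most on day 6 (r 0.109 to 0.199 across genes, which are not independent). The r was 0.017 to 0.078 on day 9, 0.039 to 0.108 on day 12 and -0.015 to 0.042 on day 16. Only day 6 met the rule used for pairing, every r above 0.1, and by a small margin. The main fit did not use this pairing, so its day 6 results are unpaired, and replicate blocks were run only as alternatives. Alternatives were pseudocounts of 0.1 and 10, no filter, a minimum value of 100, quantile normalization, median-of-ratios scaling, replicate blocks, robust variances, only the populations compared, a fold of 2, protein-coding genes, and each replicate left out; 2 were added after seeing the data (a block within the populations compared, and day 12 CD43- cells without samples 2 and 3).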

Additional observations from a re-analysis of the deposited data

Results flagged for a closer look

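For 3 members the difference between CD43+ and CD43- cells was not the same on successive days, by limma's test of that change (n = 3 per population). CEBPA went from no called difference on day 6 to a higher level in CD43+ cells on day 9, a change of 3.04 (adjusted p = 5.64e-07), and all 3 day 9 CD43+ samples were above all other samples of days 6 and 9. For CEBPE the difference widened by 4.49 from day 6 to day 9 (adjusted p = 0.000347) and by 2.63 from day 9 to day 12 (0.0189), and narrowed from day 12 to day 16, a change of -3.05 (0.0121), at CD43- values of 0 to 2 on day 12 and 5 to 20 on day 16. For CEBPB the difference changed by 2.31 from day 12 to day 16 (adjusted p = 3.91e-06), where all 3 CD43- samples fell below all day 12 samples.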

How the results depend on the processing

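With 1 replicate left out, 688 of 720 values of the 6 members kept their direction and their side of the threshold, as did 1246 of 1278 under the other settings. The counts of members called differed as follows. A fold above 2 gave 3 on day 6 (CEBPE added), 5 on day 16 and 3 between days 12 and 16 in CD43- cells and for the change over those days (CEBPD added), 2 members called between days 2 and 4 and in day 6 CD43- cells against day 4, and 4 between days 9 and 12 in CD43+ and in CD43- cells and for the day 6 to 9 change in the CD43 difference. A pseudocount of 0.1 gave 0 between days 9 and 12 in CD43+ cells and for the change over those days, where CEBPE was lost. A pseudocount of 10 gave 0 between days 2 and 4, and 1 between days 12 and 16 in CD43- cells and for the change over those days. Median-of-ratios scaling gave 2 between days 9 and 12 in CD43+ cells (CEBPD added), 3 for the day 12 to 16 change, and moved the median of all genes on day 9 from 0.24 to 0.04 and on day 6 from 0.14 to 0, while no called member changed direction. Only the populations compared gave 0 between days 9 and 12 in CD43- cells. A replicate block over all samples or within day changed no member count (2 on day 6, where same-numbered samples deviated together most). A replicate block within the populations compared gave 0 between days 9 and 12 and 1 between days 12 and 16 in CD43- cells. Without day 12 CD43- samples 2 and 3, 0 were called between days 9 and 12 in CD43- cells and 2 for the change over those days, and 3 between days 12 and 16 in CD43- cells and for that change (SPI1 added); the remaining sample was assumed to vary like the other populations. Leaving out 1 replicate gave 1 to 2 between days 9 and 12 in CD43+ cells, 0 to 2 in CD43- cells, 0 to 2 for the change over those days 0 to 1 between days 2 and 4, 3 to 4 on day 16 (3 without CD43+ sample 1), 2 to 3 between days 12 and 16 in CD43- cells and for that change, and 2 to 3 for the day 6 to 9 change. All other member counts were unchanged. Where no value above shows it, the cause was not tested.

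Some log2 values changed sign. The SPI1 change in CD43- cells between days 9 and 12, called in the report, was -0.94 without samples 2 and 3 of day 12, and the change of its CD43 difference over those days was then 2.52. With 1 replicate left out, SPI1 ranged from -1.38 to 2.09 between days 12 and 16 in CD43- cells (-1.38 without day 12 sample 1), from -1.90 to 1.56 for the change of the CD43 difference over those days, from -0.15 to 0.29 in day 6 CD43- cells against day 4 and from -0.51 to 0.18 between days 6 and 9 in CD43- cells. The other members that changed sign were uncalled throughout. With 1 replicate left out they ranged as follows: CEBPA from -0.18 to 0.46 between populations on day 6 (-0.050 with median-of-ratios scaling) and from -0.16 to 0.050 between days 12 and 16 in CD43+ cells, CEBPD from -0.083 to 0.87 for the change between days 9 and 12, CEBPE from -0.058 to 1.32 between days 0 and 2 and from -0.86 to 0.028 between days 9 and 12 in CD43- cells, and CEBPG in CD43- cells from -0.28 to 0.057 between days 6 and 9 and from -0.015 to 0.44 between days 9 and 12. CEBPB and CEBPD on day 12 were at 0.11 and 0.19 without CD43- samples 2 and 3. Depth is unknown, so the counting precision of values near 0, such as those of CEBPE, cannot be given.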
